A study of Mus musculus with 2 samples.

Results

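Proliferating bins of the 3 days section were 989 squares of tissue, each 16 µm wide, in which transcripts of dividing cells lay together. They were found in a spatial transcriptome of the injured mouse brain. The injury was a controlled cortical impact (CCI), delivered by a piston to the uncovered cortex to imitate local brain trauma. 1 coronal section was analysed per time point, at 3 days and at 28 days after the impact, each from a male mouse of the C57Bl6 strain (C57BL/6J in the methods) with no other treatment. The label gives an age of 3 months for both mice, which the methods define as the age when the injury was made. No sham section was analysed here. With 1 section per time point there is no replicate and no test, so every comparison gives values with exact 95% intervals that cover counting error only. Neighbouring bins share cells and are not independent, which makes these intervals nominal.

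A bin was called proliferating where it held at least 1 unique transcript count (UMI) of Top2a, Mki67, Birc5 or Cdk1 and where its block of 3 by 3 bins held at least 3 such UMIs. The rule was applied to the 39116 bins with at least 100 UMIs at array columns below 130 of the 3 days section, out of 222933 such bins in both sections. Proliferating bins were thus 2.53% of the bins to which the rule applied (2.38 to 2.69%). They were selected on these 4 genes, which are therefore left out of all results and serve here only as a description. Mki67 gave 603 UMIs in the selected bins, Top2a 432, Cdk1 274 and Birc5 123. A total of 675 bins held 1 of these UMIs, 233 held 2 and 81 held 3 or more. Most selected bins, 765 of 989, held only 1 of the 4 genes. At the edge of the rule, 285 selected bins had a block of exactly 3 UMIs, while 383 bins with a UMI had a block of 2 and were not selected.

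A cell that divides first copies its DNA in S phase and then separates the copies in mitosis. Replication is prepared by the loading of the MCM helicase onto origins and is carried out by polymerases that need a raised supply of deoxynucleotides, whereas mitosis relies on the kinetochore, the spindle and the kinases that time them. In the adult brain few cells divide outside the neurogenic niches, but after injury microglia, infiltrating myeloid cells, oligodendrocyte precursors, vascular cells, fibroblasts and some astrocytes can re-enter the cycle. A bin of this size holds parts of several cells, so a transcript in a proliferating bin need not come from the dividing cell, and more cells of a type cannot be told apart from more RNA per cell.

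The proliferating bins lay close together in a few regions. They made up 0.308% of bins in array rows below 200 (62 of 20101), 4.70% in rows 200 to 339 (775 of 16496) and 6.03% from row 340 on (152 of 2519). Across columns they were 3.49% of bins in columns 0 to 39, 3.34% in columns 40 to 79 and 1.21% in columns 80 to 129. Of the 989 bins, 963 touched another proliferating bin, which the block rule favours. They formed 224 touching patches of up to 65 bins, and 68 patches of at least 5 bins held 589 of them.

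**Figure D1:**
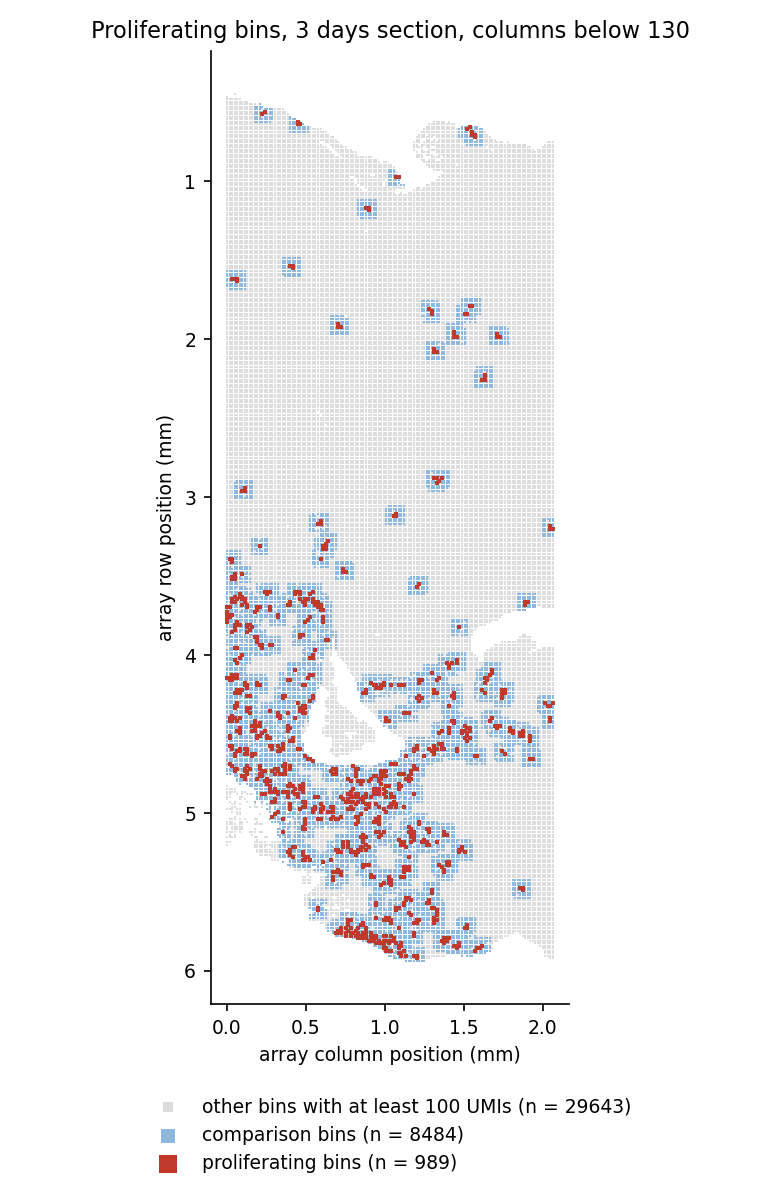
Map of the 3 days section at columns below 130, with array column and row position in mm. Each square is a bin: the 989 proliferating bins in red, the 8484 comparison bins in blue and the remaining bins in grey; most proliferating bins lie in the lower part of the map, along tissue edges and around the gaps in the tissue.

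The same rule found few bins elsewhere. In the other columns of the 3 days section 279 of 80501 bins met it (0.347%), and in the whole 28 days section 79 of 103316 (0.0765%). Of the 279 bins, 228 lay in a window of rows 240 to 309 and columns 130 to 229, chosen after the map was seen, where they were 3.34% of bins. As a further description of the selection at equal depth, each bin was thinned to 300 UMIs, after which the share of bins with a UMI of the 4 genes was 2.27% (2.12 to 2.43%) at columns below 130, 0.384% (0.340 to 0.432%) in the other columns and 0.176% (0.149 to 0.207%) at 28 days.

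For the rest of the transcriptome, the proliferating bins were compared with the 8484 bins that lay within 3 bins (48 µm) of one and held no UMI of the 4 genes. The median depth was 792 UMIs in proliferating and 651 in comparison bins. Both were thinned to 300 UMIs, which left 936 and 7427 bins, and values below are log2 ratios of the share of UMIs, proliferating over comparison, in these thinned bins. Where a pair of UMI counts is given for a gene, it is the unthinned count over all 989 proliferating and all 8484 comparison bins. The ratio weights each bin down to 300 UMIs and leaves out bins with fewer, so it can differ from the ratio of the pair. Its interval is computed at the smaller counts expected after thinning. Of 10882 genes with at least 30 expected UMIs over both kinds of bins, 895 (8.22%) were at least 1.5-fold higher and 936 (8.6%) at least 1.5-fold lower. Over all of these genes the median of the log2 ratio was -0.01, its 5th percentile -0.74 and its 95th percentile 0.73. Counts of genes past 1.5-fold in the lists below are to be read against these shares.

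Genes of mitosis were higher in the proliferating bins. Summed over 87 genes they were at 5219 CPM (UMIs scaled to a common total) in proliferating and 1963 CPM in comparison bins, a log2 ratio of 1.41 (1.32 to 1.5). Of the 64 that could be tested, 58 were at least 1.5-fold higher and none was 1.5-fold lower, against 8.22% and 8.6% of all genes. After thinning, 69.3% of proliferating bins (66.3 to 72.3%) held a UMI of these genes, against 39.1% of comparison bins and 23.0% of bins more than 6 bins away. The remaining 23 genes were too rare to be tested. Among these, Sgo1, which protects centromeric cohesion, had 29 UMIs in 989 proliferating and 25 in 8484 comparison bins, and the kinetochore subunit Ndc80 had 30 and 37.

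Kinetochore and spindle genes had the highest summed ratio of the lists, 1.75 (1.6 to 1.90), and all 27 tested were at least 1.5-fold higher. Hmmr, a spindle assembly factor, had 36 UMIs in the proliferating bins and 53 in the 8484 comparison bins, a log2 ratio of 2.43 (1.38 to 3.53). Dlgap5, which stabilises kinetochore fibres, had 47 and 59 UMIs (2.40, 1.33 to 3.37). Aspm, a spindle pole protein, had 38 and 59 UMIs (2.30, 1.27 to 3.30). The motor Kif11, which drives the spindle poles apart, had 107 and 191 UMIs (2.08, 1.46 to 2.65), of which 38.4 and 71.9 were expected after thinning. The smallest ratio in the list was that of the centromere protein gene Cenpm (0.70, -0.93 to 1.90).

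Mitotic regulators had a summed ratio of 1.39 (1.22 to 1.57), with 14 of 17 tested genes at least 1.5-fold higher. Cdc20, the activator of the anaphase-promoting complex, had the highest ratio of the listed genes that passed the minimum of 30 expected UMIs, with 56 UMIs in proliferating and 88 in comparison bins (2.50, 1.67 to 3.33). The mitotic kinases Aurka (2.45, 1.22 to 3.54) and Plk1 (2.10, 1.38 to 2.85) were close to it. The ubiquitin-conjugating enzyme Ube2c was at 1.90 (1.30 to 2.53), cyclin A2 (Ccna2) at 1.74 (1.06 to 2.38) and the transcription factor Foxm1, which activates many mitotic genes, at 1.68 (1.14 to 2.17). Not all members followed. Pttg1, which encodes securin, had 53 and 448 UMIs (-0.10, -0.99 to 0.61), and cyclin E2 (Ccne2), which acts at the start of S phase, was at 0.19 (-1.74 to 1.75).

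Genes of chromosome structure and cytokinesis were at 1.18 (1.04 to 1.31), with 17 of 20 tested genes at least 1.5-fold higher. Ect2, the exchange factor that starts the cleavage furrow, had 69 and 95 UMIs (2.31, 1.54 to 3.01). Prc1, which bundles the microtubules of the spindle midzone, had 101 and 183 (1.99, 1.37 to 2.58), and the condensin subunit Ncapg 46 and 80 (2.08, 1.13 to 2.97). Cdca3, a cell division gene, had 166 and 295 UMIs (1.93, 1.45 to 2.37). The exceptions were the heterochromatin protein gene Cbx5 (0.19, -0.31 to 0.68), the histone variant H2az1 (0.52, -0.05 to 1.03) and the cytokinesis kinase Cit (-0.33, -1.10 to 0.43).

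The promoters of the 4 cell cycle genes with the highest lower interval bounds are shown because these genes were higher together in the proliferating bins and because mitotic genes are known to share short promoter elements. The sequences are from RefSeq (GRCm38.p6) and run from 250 bases before to 50 after an annotated start. Capitals mark the cell cycle genes homology region (CHR, TTTGAA) and the CCAAT box (CCAAT), each on either strand. Cdc20 lies at chr4:118437294-118437593 on the minus strand, Ect2 at chr3:27153829-27154128 on the minus strand, Kif11 at chr19:37376132-37376431 on the plus strand and Cdca3 at chr6:124829926-124830225 on the plus strand.
Cdc20: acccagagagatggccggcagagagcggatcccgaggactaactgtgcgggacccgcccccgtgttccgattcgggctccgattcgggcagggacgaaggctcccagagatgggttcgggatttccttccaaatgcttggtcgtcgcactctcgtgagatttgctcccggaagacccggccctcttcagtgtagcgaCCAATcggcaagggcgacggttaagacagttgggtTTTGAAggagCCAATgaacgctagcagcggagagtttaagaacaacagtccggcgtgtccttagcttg
Ect2: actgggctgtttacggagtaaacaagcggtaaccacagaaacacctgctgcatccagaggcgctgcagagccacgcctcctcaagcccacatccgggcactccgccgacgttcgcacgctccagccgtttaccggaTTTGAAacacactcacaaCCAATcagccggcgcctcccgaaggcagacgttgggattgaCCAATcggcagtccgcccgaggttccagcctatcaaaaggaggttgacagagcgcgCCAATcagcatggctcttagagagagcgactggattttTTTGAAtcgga
Kif11: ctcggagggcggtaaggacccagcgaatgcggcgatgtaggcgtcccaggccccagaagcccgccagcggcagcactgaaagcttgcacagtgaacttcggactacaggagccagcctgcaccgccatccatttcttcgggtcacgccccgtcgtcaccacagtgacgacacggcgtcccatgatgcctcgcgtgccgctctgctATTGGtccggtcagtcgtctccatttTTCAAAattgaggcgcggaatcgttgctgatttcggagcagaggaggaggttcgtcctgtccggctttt
Cdca3: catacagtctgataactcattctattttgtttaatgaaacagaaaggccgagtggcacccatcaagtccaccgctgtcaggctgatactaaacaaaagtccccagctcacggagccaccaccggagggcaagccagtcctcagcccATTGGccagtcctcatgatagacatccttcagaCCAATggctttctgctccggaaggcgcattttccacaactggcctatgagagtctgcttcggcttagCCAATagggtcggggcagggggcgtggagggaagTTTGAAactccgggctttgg
Each of the 4 windows held both elements. With the annotated start as 0, the CHR began at -18 in Cdc20, at -114 and 39 in Ect2, at -19 in Kif11, where it lies on the reverse strand, and at 30 in Cdca3.

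These elements were then counted over the lists, on both strands, with a gene counted where any of its windows held the letters. Among the mitosis genes 70 of 87 had a window, and 45 of them (64.3%) held TTTGAA, against 20.2% of the 27025 genes with a window. The CCAAT box was in 71.4% of mitosis genes and 41.1% of all genes. Of the replication genes 35 of 45 had a window. The CCAAT box was in 62.9% of them and TTTGAA in 14.3%. TTTNNCGC, a form of the E2F site, was in 51.4%, against 21.4% of mitosis genes and 5.93% of all genes. Among mitosis genes that were tested and had a window, the 33 with TTTGAA had a median log2 ratio of 1.73 and all were at least 1.5-fold higher. The 15 without it had a median of 0.91, and 11 were at least 1.5-fold higher. The choice of bins favours genes expressed together with those used for the selection. The mitosis list also holds other genes, such as a cyclin of the start of S phase and a heterochromatin protein gene. The split by TTTGAA may therefore in part sort genes by class, and cannot show that the element goes with the size of the ratio. Whether it does so among genes of the same class was not tested. The letters are a description of the windows and say nothing of what bound there.

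Replication genes were higher as well, by less. Summed over 45 genes they were at 2626 CPM in proliferating and 1372 CPM in comparison bins, a log2 ratio of 0.94 (0.82 to 1.05), below the interval of the mitosis genes. Proliferating bins were chosen for UMIs of the selection genes and comparison bins for their absence, which favours genes expressed together with the selection genes. The order of the cell cycle lists can therefore not be read as a difference between phases of the cycle. Other selection genes were not tested. Of 37 tested replication genes 26 were at least 1.5-fold higher and none was 1.5-fold lower. They included both subunits of ribonucleotide reductase, which makes deoxynucleotides. Rrm2 had 220 UMIs in proliferating and 494 in comparison bins (1.5, 1.09 to 1.89), and Rrm1 had 194 and 561 (1.42, 1.0 to 1.82). Of the helicase genes, Gins2 was at 1.72 (0.58 to 2.81), Mcm2 at 1.23 (0.42 to 1.96) and Mcm6 at 1.01 (0.26 to 1.69). Pcna, the sliding clamp of the polymerases, had 247 and 1034 UMIs (0.79, 0.43 to 1.14). Against own neighbours, a comparison described further on, Rrm1 was at 0.92 (0.34 to 1.56) and Rrm2 at 0.79 (0.23 to 1.38). The intervals of Gins2 (1.25, -0.30 to 3.57), Mcm2 (0.80, -0.37 to 1.90), Mcm6 (0.52, -0.46 to 1.60) and Pcna (0.46, -0.03 to 0.98) spanned 0 there. The chromatin remodeller Hells was at -0.14 (-1.78 to 1.25) from 4.81 and 42.0 expected UMIs and at 0.44 without thinning, so no direction was detectable at this depth.

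G1 genes and ribosome genes differed less. The G1 cyclins and brakes summed to a log2 ratio of 0.48 (0.32 to 0.63), with 6 of 18 at least 1.5-fold higher. These included the INK4 inhibitor Cdkn2c (132 and 330 UMIs, 1.34, 0.82 to 1.87), Cdk2 (1.32, 0.08 to 2.32), Cdk4 (0.73, 0.05 to 1.37) and cyclin D1 (Ccnd1, 0.59, 0.16 to 0.98). Cdkn1a, the p53 target that halts the cycle, was at 0.49 (-0.11 to 1.03), and the pocket protein gene Rbl2 at -0.42 (-1.61 to 0.70). Ribosome biogenesis genes summed to 0.28 (0.10 to 0.45), and 1 of 16 was 1.5-fold higher, which is near the share of all genes. Against own neighbours, a comparison described further on, the ribosome biogenesis genes were at 0.07 (-0.16 to 0.31). The G1 genes were at 0.29 (0.07 to 0.50) there.

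**Figure D2:**
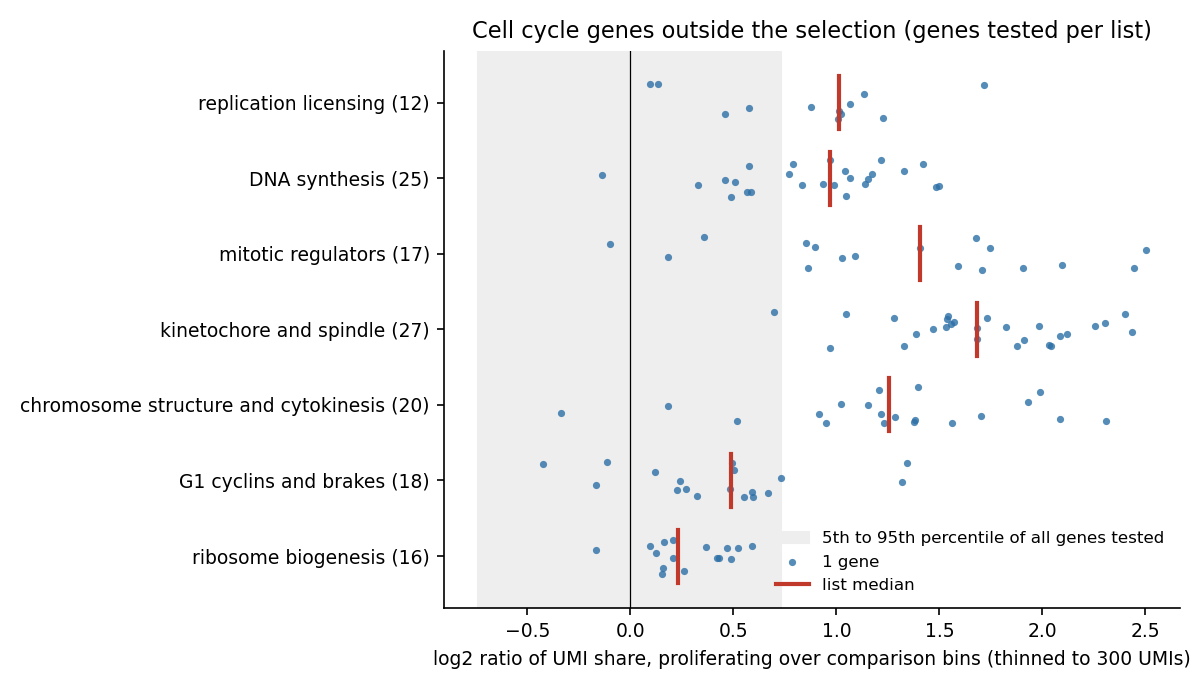
Log2 ratio of each tested cell cycle gene outside the selection, proliferating over comparison bins, by list; red bars are list medians and the grey band spans the 5th to 95th percentile of all 10882 genes. All 27 kinetochore and spindle genes are at least 1.5-fold higher, while most G1 and ribosome genes lie inside the grey band.

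Outside the lists, the 15 genes with the highest lower interval bounds were mostly genes of division too. They included Stil, needed for centriole duplication (38 and 56 UMIs, 2.26, 1.2 to 3.29), the mitotic kinases Pbk (86 and 152 UMIs, 1.88, 1.18 to 2.53) and Nek2 (2.10, 1.12 to 3.10), the spindle genes Gtse1 (1.81, 1.16 to 2.47) and Knstrn (1.76, 1.13 to 2.37), and the centromere gene Cenpl (2.19, 1.06 to 3.21). Sapcd2 (2.22), Trip13 (2.25) and Rad51ap1 (2.00) were also among them. Histone genes formed a second set, with H2ac24 (220 and 540 UMIs, 1.51, 1.13 to 1.90) and the linker histones H1f1 (1.64), H1f5 (1.65) and H1f4 (1.23). Histone genes have near-identical copies, so which copy was counted is uncertain. Loxl2, a lysyl oxidase that crosslinks collagen, was also in the set (1.85, 0.82 to 2.79).

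The 10 genes with the lowest upper bounds were largely genes of neurons or secretory cells. Snhg11, a neuronal noncoding RNA, had 671 and 8768 UMIs (-0.73, -0.96 to -0.50), the synaptic gene Cplx1 98 and 1507 (-1.10, -1.74 to -0.48) and Napb, which acts in vesicle fusion, 88 and 1390 (-1.05, -1.72 to -0.41). Enpp2, which encodes autotaxin and is abundant in the choroid plexus, had 205 and 4031 UMIs (-0.96, -1.34 to -0.60). The vasopressin gene Avp had 4 and 442 UMIs (-2.68, -5.92 to -0.97). Resp18 (-1.65), Ptprn2 (-1.02), Nap1l5 (-0.83), Rasgrf1 (-1.21) and Crebl2 (-1.68) completed the set. When each proliferating bin was set against its own neighbours, a comparison described further on, 8 of these 10 genes had intervals that spanned 0. Snhg11 was then at -0.34 (-0.64 to -0.04) and Enpp2 at -0.51 (-0.98 to -0.04). Of the 15 higher genes 12 had intervals above 0 in that comparison.

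Which cell types shared the proliferating bins was asked with marker lists. Microglia genes were higher, at 1888 CPM in proliferating and 1044 CPM in comparison bins, a log2 ratio of 0.85 (0.72 to 0.99). Of 9 tested genes 6 were at least 1.5-fold higher. Fcrls had 435 and 1403 UMIs (1.13, 0.86 to 1.38), the purinergic receptor P2ry12 39 and 146 (0.99, 0.01 to 1.92) and Tmem119 82 and 272 (0.92, 0.24 to 1.57). Genes that microglia share with other myeloid cells were at 0.71 (0.63 to 0.80), with 10 of 15 at least 1.5-fold higher, among them the complement genes C1qa (0.91, 0.72 to 1.10) and C1qb (0.88, 0.63 to 1.11) and the CSF1 receptor gene Csf1r (0.79, 0.42 to 1.13).

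Genes of monocytes and macrophages had the same pooled ratio as those of microglia, 0.85 (0.66 to 1.03), and 6 of 7 tested genes were at least 1.5-fold higher. Against own neighbours the list was at 0.11 (-0.13 to 0.35). Fn1 and Thbs1 gave 514 and 224 of its 1052 CPM in the proliferating bins, so the sum mostly follows these genes. Plac8 (0.86, -0.70 to 2.19) and F13a1 (-0.19, -2.55 to 1.52) had intervals that spanned 0. Arg1, an enzyme of wound macrophages, had 75 and 276 UMIs (1.10, 0.43 to 1.68), the scavenger receptor Msr1 83 and 279 (0.87, 0.23 to 1.48), fibronectin (Fn1) 468 and 1675 (0.91, 0.63 to 1.17) and Ccr2 20 and 74 (0.98, -0.45 to 2.22).

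The stromal and vascular lists were mixed within themselves. Of all genes tested 8.22% were at least 1.5-fold higher, and in lists this short a few such genes say little. Fibroblast genes summed to 0.74 (0.53 to 0.95), and 4 of 7 tested genes, all collagens, were at least 1.5-fold higher, among them Col3a1 (1.24, 0.82 to 1.64) and Col1a1 (1.16, 0.73 to 1.55). The other fibroblast genes, the matrix proteoglycan genes Dcn (-0.11, -0.72 to 0.47) and Ogn (-0.15, -1.58 to 1.15) and Islr (-0.35, -2.05 to 0.95), gave no direction at this depth. Mural cell genes summed to 0.43 (0.25 to 0.61), with 2 of 10 at least 1.5-fold higher and a median of 0.28. The contractile gene Tagln (0.56, 0.30 to 0.81) gave 538 of their 1075 CPM in the proliferating bins, and the actin gene Acta2 was at 1.33 (0.79 to 1.87). The pericyte genes Rgs5 (-0.05, -0.64 to 0.45), Vtn (0.06, -0.55 to 0.59) and Pdgfrb (0.11) had intervals that spanned 0. Endothelial genes summed to 0.38 (0.20 to 0.56), with 4 of 12 at least 1.5-fold higher. Pecam1 was at 0.68 (0.13 to 1.21), Cldn5 at 0.63 (0.23 to 1.03), Slco1a4 at -0.55 (-1.75 to 0.40) and Itm2a at -0.54 (-1.17 to 0.03). Injury-induced glial genes summed to 0.40 (0.34 to 0.47), with 2 of 9 at least 1.5-fold higher. Vim (0.44, 0.36 to 0.52) gave 5304 of their 7591 CPM in the proliferating bins, and Tnc was at 1.13 (0.83 to 1.44) and Serpina3n at 0.04 (-0.14 to 0.22).

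The choice of comparison bins changed the order of the lists. Isolated proliferating bins bring more comparison bins per member than dense patches do, so each proliferating bin was also compared with its own comparison bins within 3 bins, every proliferating bin weighted equally, an alternative added after the data were seen. The mitosis genes were then at 0.97 (0.84 to 1.10), the replication genes at 0.51 (0.34 to 0.67) and the microglia genes at 0.69 (0.49 to 0.90). The monocyte and macrophage genes were at 0.11 (-0.13 to 0.35), the fibroblast genes at 0.19 (-0.09 to 0.47), the mural genes at 0.07 (-0.16 to 0.31), the endothelial genes at 0.06 (-0.18 to 0.30) and the injury-induced glial genes at 0.02 (-0.07 to 0.10). The shared myeloid genes were at 0.46 (0.34 to 0.59). Against their own neighbours the proliferating bins were thus higher in cell cycle, microglia and shared myeloid genes. For the monocyte, fibroblast and vascular lists no difference was detectable at this depth. Of single genes, Fcrls was at 0.75 (0.35 to 1.12) and C1qa at 0.70 (0.42 to 0.99), whereas Arg1 was at 0.14 (-0.70 to 0.91).

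**Figure D3:**
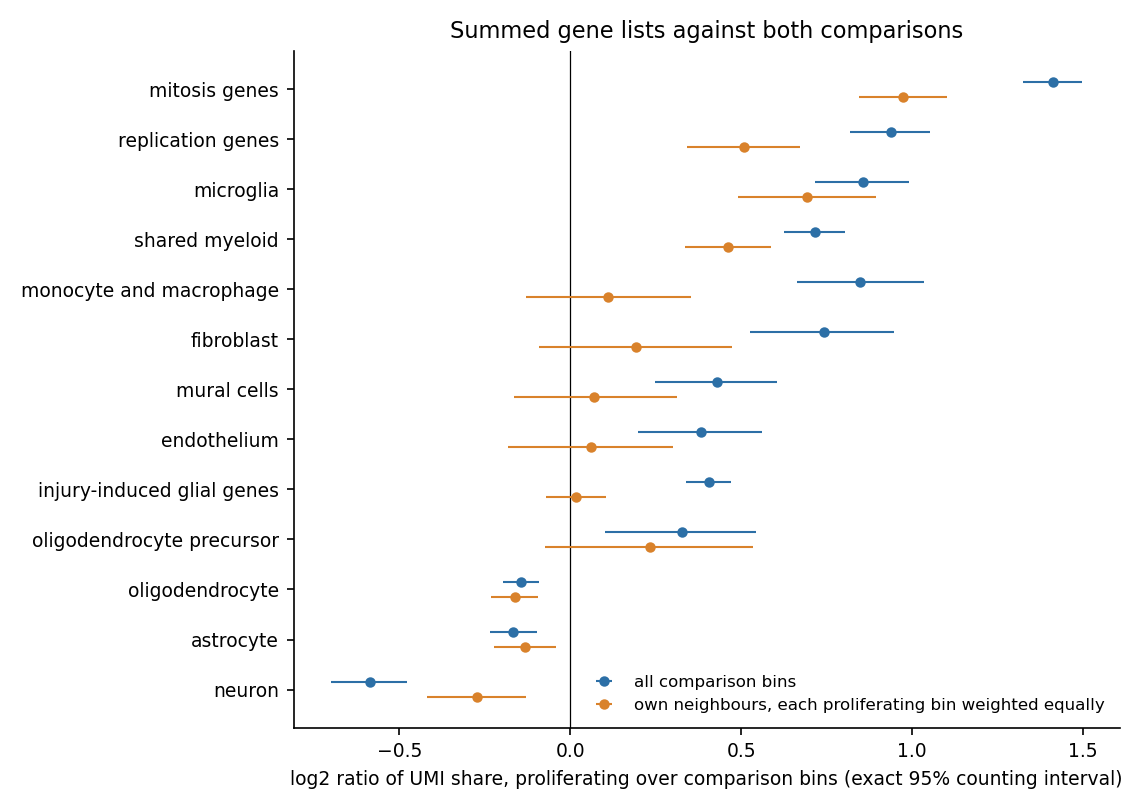
Log2 ratio of summed gene lists, proliferating over comparison bins, against all comparison bins (blue) and against each bin's own neighbours with equal weight (orange); bars are exact 95% counting intervals. The microglia list falls from 0.85 to 0.69 and the shared myeloid list from 0.71 to 0.46, while the monocyte and macrophage list falls from 0.85 to 0.11.

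The lists of other glia differed little, and that of neurons was lower. Oligodendrocyte precursor genes were at 0.33 (0.10 to 0.54), with 3 of 8 at least 1.5-fold higher, Pdgfra at 0.96 (0.10 to 1.80), Olig2 at 0.56 (-0.02 to 1.07) and Sox10 at 0.06 (-0.39 to 0.51), and at 0.23 (-0.07 to 0.54) against own neighbours. Astrocyte genes were at -0.17 (-0.24 to -0.10), with Gfap at -0.09 (-0.19 to 0.01), and oligodendrocyte genes at -0.14 (-0.20 to -0.09). Neuronal genes were at -0.59 (-0.70 to -0.48), with 8 of 12 at least 1.5-fold lower, and at -0.27 (-0.42 to -0.13) against own neighbours. The synaptic gene Snap25 had 977 and 11961 UMIs (-0.65, -0.85 to -0.46). Ependymal and choroid plexus genes were at -1.90 (-2.12 to -1.70), with Ttr giving 623 of 792 and 27318 of 29177 UMIs. They were at -1.01 (-1.26 to -0.75) against own neighbours, and by row band they ran from -1.96 (-2.25 to -1.68) in rows 35 to 262 to 0.25 (-0.52 to 0.94) in rows 297 to 323. Neutrophil and lymphocyte genes summed to 22 and 3 UMIs over all 989 proliferating bins.

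Growth factor and receptor genes summed to a log2 ratio of 0.70 (0.57 to 0.83), and to 0.21 (0.03 to 0.38) against own neighbours. Of 13 tested genes 3 were at least 1.5-fold higher, against 8.22% of all genes, and the median was 0.28. A large part of the sum was 1 gene, Spp1, with 1240 of 2110 CPM in proliferating and 593 of 1299 CPM in comparison bins. Spp1, which encodes osteopontin, had 934 and 3114 UMIs (1.07, 0.89 to 1.24) and 0.31 (0.08 to 0.55) against own neighbours, and Tgfb1 had 102 and 344 UMIs (1.17, 0.57 to 1.70) and 0.75 (-0.08 to 1.59). Il1b was at 0.67 (-0.89 to 1.95) from 6.10 and 30.5 expected UMIs and at -0.33 against own neighbours. The CSF1 receptor ligands Csf1 (-0.10, -1.15 to 0.71) and Il34 (-0.36, -1.16 to 0.38) gave no direction at this depth, and Igf1 had 2 UMIs in the proliferating and 41 in the comparison bins.

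Levels fell with distance from the proliferating bins at different rates. The rings and the bins farther away leave out every bin with a UMI of the selection genes, whereas every proliferating bin holds such a UMI. The step from the proliferating bins to the first ring is therefore in part built in for genes expressed together with the selection genes, such as those of mitosis. How large that part is was not tested. Mitosis genes went from 5219 CPM in the proliferating bins to 2749 CPM in the first ring around them, 1631 in the second and 1044 in the sixth, and were at 897 CPM farther away. Microglia genes went from 1888 to 1174 CPM in the first ring, 986 in the second and 759 in the sixth. Monocyte and macrophage genes fell less at the first step, from 1052 to 810 CPM, and then to 531 in the second, 199 in the sixth and 91.6 CPM farther away. Endothelial genes stayed between 692 and 937 CPM over the 6 rings. Whether the first ring held parts of the same cells was not tested.

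**Figure D4:**
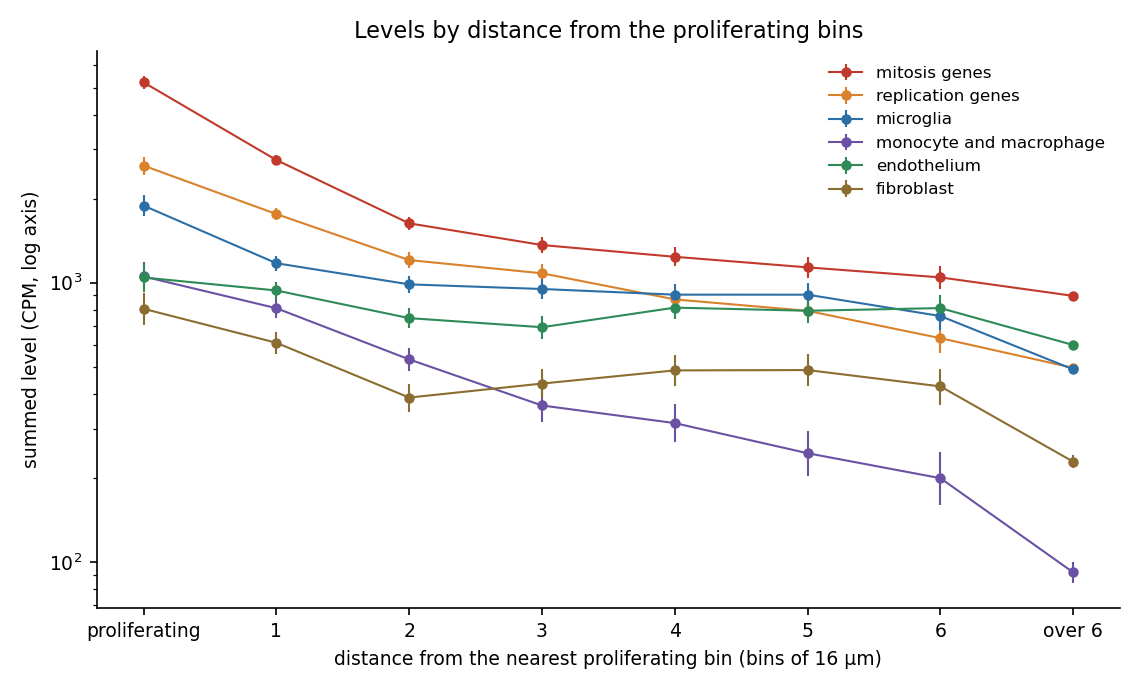
Summed level of 6 gene lists in CPM (log axis) in the proliferating bins, in rings 1 to 6 bins away and farther; bars are exact 95% Poisson intervals. Mitosis genes fall most steeply at the first step, from 5219 to 2749, and monocyte and macrophage genes keep falling out to the sixth ring. The rings leave out bins with a UMI of the selection genes, which in part builds in the first step of the mitosis genes.

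The mitosis genes were also described by the strength of the selection. Since these classes are made from the UMIs of the 4 selection genes, their values are a description and no independent support. The mitosis genes were at 4261 CPM in the bins with a block of 3 UMIs and at 6730 CPM in those with 6 or more. Bins with 1 selection UMI had 4713 CPM and the 81 bins with 3 or more had 8193 CPM (7074 to 9422). The 848 bins that held a UMI of the 4 genes but failed the block rule had 2675 CPM (2465 to 2893), a level like that of the first ring. Microglia genes changed less over these classes, at 1803 CPM with a block of 3, 1852 CPM with 6 or more and 1525 CPM (1371 to 1696) in the bins that failed the rule.

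Markers of different cells were split over the proliferating bins. Microglia UMIs without monocyte and macrophage UMIs were found in 356 of 989 bins, both in 218, monocyte and macrophage UMIs alone in 133 and neither in 282 (28.5%, 25.7 to 31.4%). In the comparison bins the last share was 49.3%. These shares are unthinned, and bins with both had a median of 967 UMIs against 649 in bins with neither. The mitosis genes were at 5107 CPM (4771 to 5463) in the 574 bins with a microglia UMI and at 5383 CPM (4968 to 5829) in the 415 without one. They were at 5569 CPM with and 5021 CPM without a monocyte and macrophage UMI, at 4907 with and 5418 without an endothelial UMI, and at 4446 with and 5375 without a fibroblast UMI. They were at 6153 CPM (5667 to 6665) in the 328 bins with an oligodendrocyte precursor UMI and at 4727 CPM (4416 to 5050) in the 661 without.

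The microglia, monocyte and macrophage, and fibroblast ratios varied along the section more than that of the mitosis genes. The bins were divided by array row into 4 bands of about equal number and each was set against the comparison bins of the same rows. Mitosis genes were at 1.55, 1.27, 1.14 and 1.42 from the lowest to the highest rows. Microglia genes were at 1.46 (1.21 to 1.69) in rows 35 to 262, at 0.45 (0.17 to 0.72) and 0.40 (0.04 to 0.74) in the 2 middle bands and at 0.99 (0.70 to 1.28) in rows 324 to 370. Monocyte and macrophage genes were at 0.42 (-0.24 to 1.03), 0.37 (-0.15 to 0.86), 0.22 (-0.11 to 0.53) and 1.14 (0.84 to 1.42). Fibroblast genes were at 1.29 (1.02 to 1.55) in the last band, with intervals that spanned 0 in the others. Oligodendrocyte precursor genes were at 0.20 (-0.33 to 0.65), 0.10 (-0.32 to 0.49), 0.43 (0.02 to 0.81) and 0.47 (-0.19 to 1.06). Those intervals are too wide to show whether the ratio varied. The intervals of the monocyte and fibroblast lists thus lay above 0 only in rows 324 to 370, where the map shows a dense band along the tissue edge. The same held for mural cell genes (0.94, 0.60 to 1.26), endothelial genes (0.65, 0.35 to 0.95) and ribosome biogenesis genes (0.59, 0.26 to 0.89). Injury-induced glial genes were also highest there, at 0.90 (0.75 to 1.06). The pattern was thus not particular to the monocyte and fibroblast lists.

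**Figure D5:**
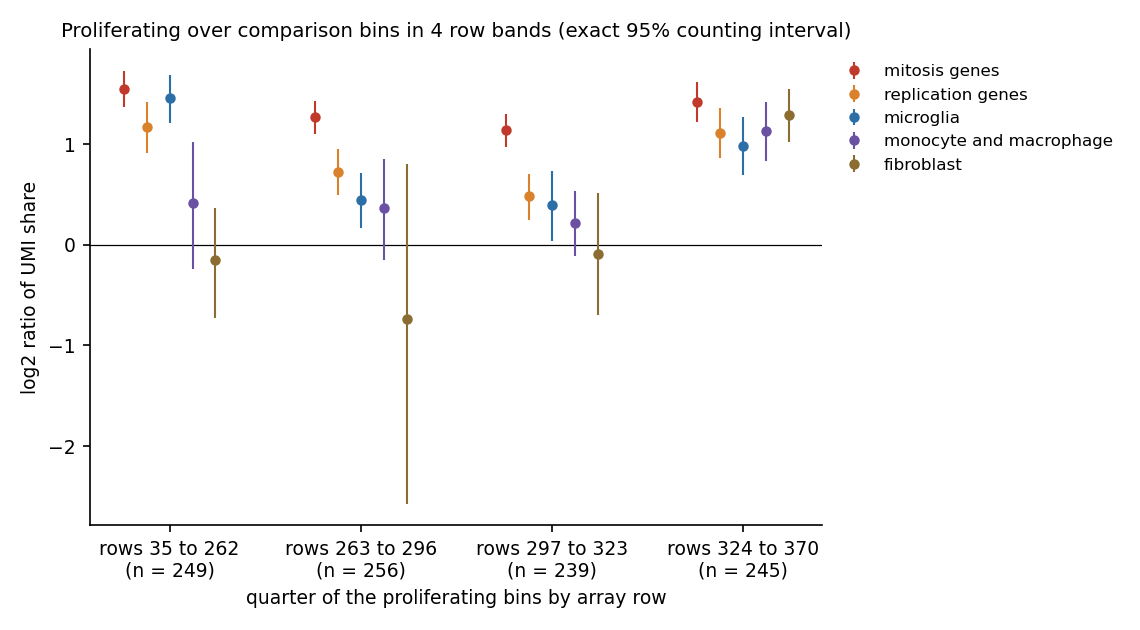
Log2 ratio of 5 gene lists, proliferating over comparison bins, in 4 row bands with about equal numbers of proliferating bins; bars are exact 95% counting intervals. Mitosis genes lie between 1.14 and 1.55 in every band, whereas the fibroblast interval lies above 0 only in rows 324 to 370.

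Bins found by the same rule elsewhere were also high in mitosis genes. In the other columns of the 3 days section the mitosis genes were at 1.66 (1.48 to 1.82) and the microglia genes at 1.05 (0.80 to 1.28), while monocyte and macrophage genes were at 0.23 (-1.01 to 1.14) from 9.42 expected UMIs. Oligodendrocyte precursor genes were at 0.77 (0.27 to 1.25) there and neuroblast genes at 1.40 (0.62 to 2.15), against -0.02 (-0.52 to 0.43) at columns below 130. At 28 days, with 79 bins, the mitosis genes were at 2.02 (1.66 to 2.35), the microglia genes at 0.22 (-0.30 to 0.73), the shared myeloid genes at 0.50 (0.27 to 0.73) and the neuroblast genes at 1.78 (0.61 to 2.89), the last from 8.58 expected UMIs. Whether these areas or times differ was not tested, since there is 1 section per time point and bins of a section are not replicates.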

How the data were processed

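Formalin-fixed, paraffin-embedded coronal sections of the brain were profiled with the Visium HD probe assay. The authors deposited raw UMI counts per gene in bins of 16 µm, made with Space Ranger (4.0.1 in the file header) on mm10; array positions were read from the bin names. Median depth per deposited bin was 836 UMIs at 3 days and 596 at 28 days. Free or spread transcripts were not removed, so a UMI in a bin need not come from a cell there. The members and gene lists were chosen with earlier results of these data known.

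Each bin with at least 300 UMIs, not counting the 4 selection genes, was thinned to 300 UMIs. The mean over all possible thinnings was computed instead of a single draw, so expected counts need not be whole. Intervals are exact at the rounded expected counts: conditional binomial for ratios, Clopper-Pearson for shares and Poisson for levels, all at 95%. A gene was tested with at least 30 expected UMIs over both kinds of bins and counted as higher or lower past 1.5-fold. Because the filter sums both kinds of bins, a gene can pass through the side where it is high. For the comparison with own neighbours, counts were weighted to the number of proliferating bins, so its intervals are wide. All listed genes could be named, and outside the lists the 15 with the highest lower bounds and the 10 with the lowest upper bounds; some of these genes are not reported here. No test was made, since each time point had 1 section. Calculations used Python 3.11.15, numpy 2.4.6, scipy 1.17.1 and, for scaling, edgeR 4.0.16, and the steps were tested on simulated data. Alternatives covered the thinning depth, the block rule, the minimum depth, the comparison bins, the scaling and the gene filter.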

Additional observations from a re-analysis of the deposited data

How the results depend on the processing

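No paired analysis was possible because each time point had 1 section, and for the same reason no replicate could be left out. The number of proliferating bins stayed within 1.5 times 989 with every other block rule or depth minimum tried. The ratios of the main lists kept their sign in all alternatives, but not all intervals stayed clear of 0. Against own neighbours those of the monocyte and macrophage (-0.13 to 0.35), endothelial (-0.18 to 0.30) and oligodendrocyte precursor lists (-0.07 to 0.54) spanned 0. That of the precursor list also did so when thinned to 200 UMIs (-0.02 to 0.52) and with a block of at least 4 UMIs (-0.03 to 0.50).

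Depth and thinning moved sizes. Thinned to 500 UMIs, the replication genes were at 1.11, the mitosis genes at 1.5 and the microglia genes at 1.02. With no thinning the replication genes were at 1.07 and the microglia genes at 1.03, and 1493 genes were at least 1.5-fold higher. A single random thinning gave 1352 genes higher and 1578 lower.

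The comparison bins mattered more. With bins at a distance of 2 or 3, the replication genes were at 1.19, the mitosis genes at 1.79, the monocyte and macrophage genes at 1.21 and the neuron genes at -0.71. With bins within 6, these were 1.21, 1.67, 1.2 and -0.72, and 1495 genes were lower. Against own neighbours, an alternative added after seeing the data, the replication genes were at 0.51, the mitosis genes at 0.97, the microglia genes at 0.69, the monocyte and macrophage genes at 0.11, the endothelial genes at 0.061 and the neuron genes at -0.27. There 120 genes were higher and 42 lower, with fewer genes past the minimum by construction. A further alternative added after seeing the data, a block with at least 2 of the 4 genes, moved no main list outside its interval.

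Without a minimum per gene 2479 genes were higher and 4730 lower, and at a fold of 2 these were 229 and 217.

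Single genes that changed direction were Dlx2 with no thinning (0.12), Atad2 (-0.40) and Cenpm (-0.37) in a single random thinning, Cdk6 (-0.20) and Plac8 (-0.21) with a block of at least 4 UMIs and Myh11 (-0.046) with bins within 6. Against own neighbours Atad2 (-0.020), Thbs1 (-0.16), Pf4 (-0.056), Timp1 (-0.028), Slc17a6 (0.30) and Il1b (-0.33) did so. The cause was not tested.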
